A study of Homo sapiens with 8 samples.

Results

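HDAC6 knockdown was examined in IL-1-stimulated SW1353 cells by setting the 2 siHDAC6 + IL-1 arrays against the 2 siCon + IL-1 arrays, which are 4 of the 8 arrays of the series, across all genes and in both directions. The arrays were chosen by their labels alone. SW1353 is an established human chondrosarcoma line used as a chondrocyte model, and total RNA was hybridised to Illumina whole-genome expression arrays. Both groups received siRNA 24 h before IL-1α and were then stimulated for 6 h by the sample labels, while a legend of the study states a longer time for these arrays. Controls (siCon) were transfected with Allstars, which targets no gene, and knockdown cells (siHDAC6) with the only QIAGEN siRNA to HDAC6 that the methods list, so loss of HDAC6 and other effects of that siRNA cannot be told apart. The remaining 4 arrays hold the same siRNA treatments without IL-1. With n = 2 per group and no label naming separate cultures, the p-values reflect only how far the arrays of a group differed, which may be technical spread.

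HDAC6 is a mainly cytoplasmic deacetylase that removes acetyl groups from α-tubulin, HSP90 and cortactin, and its zinc finger binds ubiquitin and links it to aggresome formation and autophagy. IL-1 acts on chondrocytes through its receptor, MYD88, NF-κB and MAP kinases, and is known for inducing collagenases and inflammatory cytokines that break down cartilage.

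HDAC6 itself gave a normalized log2 signal of 6.63 and 6.46 on the siCon + IL-1 arrays and of 4.84 and 4.87 on the siHDAC6 + IL-1 arrays, where it was not above background. The groups did not overlap, and the transcript was at least 3.0-fold lower, the bound set by the lowest detected signal (adjusted p = 6.24e-04, limma). In the authors' log2 values, which are compressed near background, its log2 difference was -0.53. Of 16 chondrocyte markers 7 passed the detection filter, SOX9, COL11A1 and HAPLN1 on all 8 arrays, whereas ACAN, COMP and MATN1 did not pass. Per array 29.3% to 34.1% of probes were above background, and siCon + IL-1 replicate 2 had the fewest genes detected, 9461 against 10073 to 10208 on the other 3 IL-1 arrays.

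Of 11182 genes tested, knockdown lowered 494 (4.42%) and raised 408 (3.65%) in stimulated cells, 8.07% in all, at an adjusted p under 0.05. By normalized signal the falls were larger than the rises. Among the called genes 91 falls and 23 rises passed 2-fold, and 4 falls and 0 rises passed 4-fold. The median log2 difference was -0.70 for the falls and 0.61 for the rises, beside 0.03 for all genes. The 4 falls past 4-fold were MMP13, CRYGS, SGSM1 and IL6. In the authors' log2 values their differences were -1.90, -1.53, -0.83 and -2.14. Under median scaling in place of quantile normalization the all-gene median was 0.14 and the calls turned from 45.2% higher to 58.1% higher. Rises also outnumbered falls in the authors' log2 values, with 820 lower and 872 higher (51.5% higher). The same held with a detection p under 0.01 (685 and 701) and eBayes with trend and robust (733 and 800). In the other settings, such as an offset of 50 (731 and 706), falls stayed more numerous. The counts depended on single arrays: 211 lower and 105 higher without siCon + IL-1 replicate 2, 172 and 70 without siHDAC6 + IL-1 replicate 1, and 130 and 50 without siHDAC6 + IL-1 replicate 2.

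**Figure D1:**
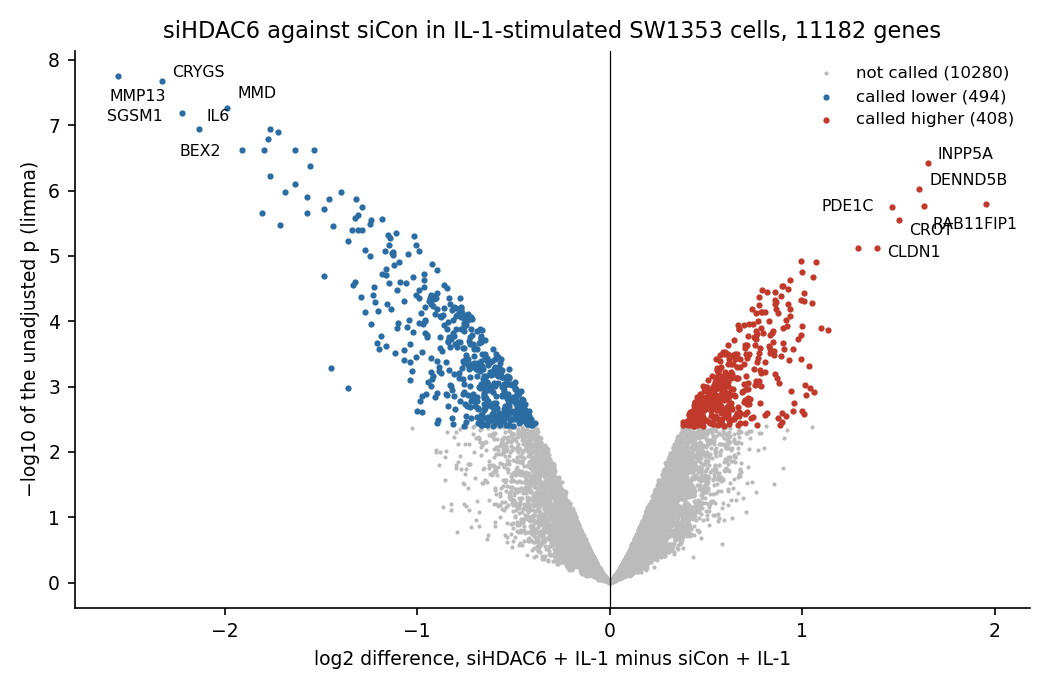
Each point is 1 of 11182 genes. The horizontal axis is the log2 difference between siHDAC6 + IL-1 and siCon + IL-1 (n = 2 arrays per group), the vertical axis −log10 of the unadjusted limma p, and colour marks the 494 genes called lower and the 408 called higher. The left arm reaches -2.55 (MMP13) and the right arm 1.96 (RAB11FIP1); in the authors' log2 values IL6 (-2.14) fell more than MMP13 (-1.90).

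By normalized signal the 15 largest rises ranged from 2.06-fold to 3.88-fold, with standard errors of 0.11 to 0.21 on the log2 scale. For GPR160 and LIN28A, at background with siCon + IL-1, only the lower bounds given below apply. RAB11FIP1, an effector of Rab11 on recycling endosomes, had a log2 signal of 5.55 and 5.91 with siCon + IL-1 and of 7.79 and 7.58 with siHDAC6 + IL-1. DENND5B, which carries the DENN domain of Rab regulators, went from 5.58 and 5.81 to 7.23 and 7.38. In both genes every siHDAC6 + IL-1 array lay above every siCon + IL-1 array, a separation that all called genes and 52.4% of all genes showed in 1 direction or the other, and the differences were 1.96 (SE 0.15, adjusted p = 7.65e-04) and 1.61 (SE 0.12, adjusted p = 6.21e-04). Without IL-1 the same siRNA raised them by 2.28 and 1.45.

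INPP5A, a phosphatase that ends the calcium signal of inositol trisphosphate, had 6.09 and 5.99 with siCon + IL-1 and 7.64 and 7.74 with siHDAC6 + IL-1. PDE1C, a calmodulin-dependent phosphodiesterase of cyclic nucleotides, had 5.58 and 5.48 against 6.89 and 7.10. MARCHF4, a membrane-bound ubiquitin ligase, had 6.83 and 6.79 against 8.45 and 8.42. The groups did not overlap for any of the 3 genes, whose log2 differences were 1.65 for INPP5A, 1.47 for PDE1C and 1.63 for MARCHF4, and all 3 were called higher without IL-1 too (1.10, 1.48 and 1.30). NMT2, a myristoyltransferase that adds a lipid anchor to proteins, rose by 1.05 and FAM217B by 1.29.

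CROT and CLDN1 differed from these genes in unstimulated cells. CROT, the peroxisomal carnitine octanoyltransferase of fatty acid oxidation, had 5.59 and 5.50 with siCon + IL-1 and 7.06 and 7.03 with siHDAC6 + IL-1, while without IL-1 it had 7.41 and 7.73 with siCon and 7.57 and 7.50 with siHDAC6. The siHDAC6 + IL-1 arrays thus lay between the siCon + IL-1 arrays and the unstimulated arrays, where the 2 siRNA groups overlapped (log2 difference -0.03). The rise with IL-1 was 1.502 (SE 0.13, adjusted p = 9.29e-04), and the difference between the effects with and without IL-1 passed the interaction test (1.53, adjusted p = 0.0311). CROT was the 1 gene with an interaction above 0 (0.00894% of genes), and 12 lay below 0 (0.107%). CLDN1, a claudin of tight junctions, was not above background on any unstimulated array, and had 5.68 and 5.34 with siCon + IL-1 against 6.89 and 6.90 with siHDAC6 + IL-1. Its rise of 1.39 (SE 0.13, adjusted p = 0.00175) was called, whereas its interaction missed the threshold (adjusted p = 0.0545).

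PAPPA, a protease that frees insulin-like growth factors by cutting their binding proteins, went from 8.14 and 7.67 to 9.05 and 9.02, a log2 difference of 1.13. FZD2, a Wnt receptor, went from 8.04 and 8.14 to 9.26 and 9.06, a difference of 1.07. TGFB2, a transforming growth factor ligand, went from 5.50 and 4.93 to 6.34 and 6.16, a difference of 1.04 (SE 0.21). The 2 siCon + IL-1 arrays were 0.57 apart for TGFB2, which was above background on only 1 of them, and the call was lost without some single arrays (adjusted p up to 0.131). The same happened for PAPPA (up to 0.0589), for CARD10, a scaffold of NF-κB signalling (rise of 1.10, up to 0.06), and for GPR160, an orphan receptor (at least 1.63-fold higher, up to 0.128). The other 11 of the 15 rises, LIN28A among them (an RNA-binding protein that blocks let-7 maturation, at least 1.30-fold higher), were called under every alternative that tested them (LIN28A was not tested with the stricter detection filter).

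**Figure D2:**
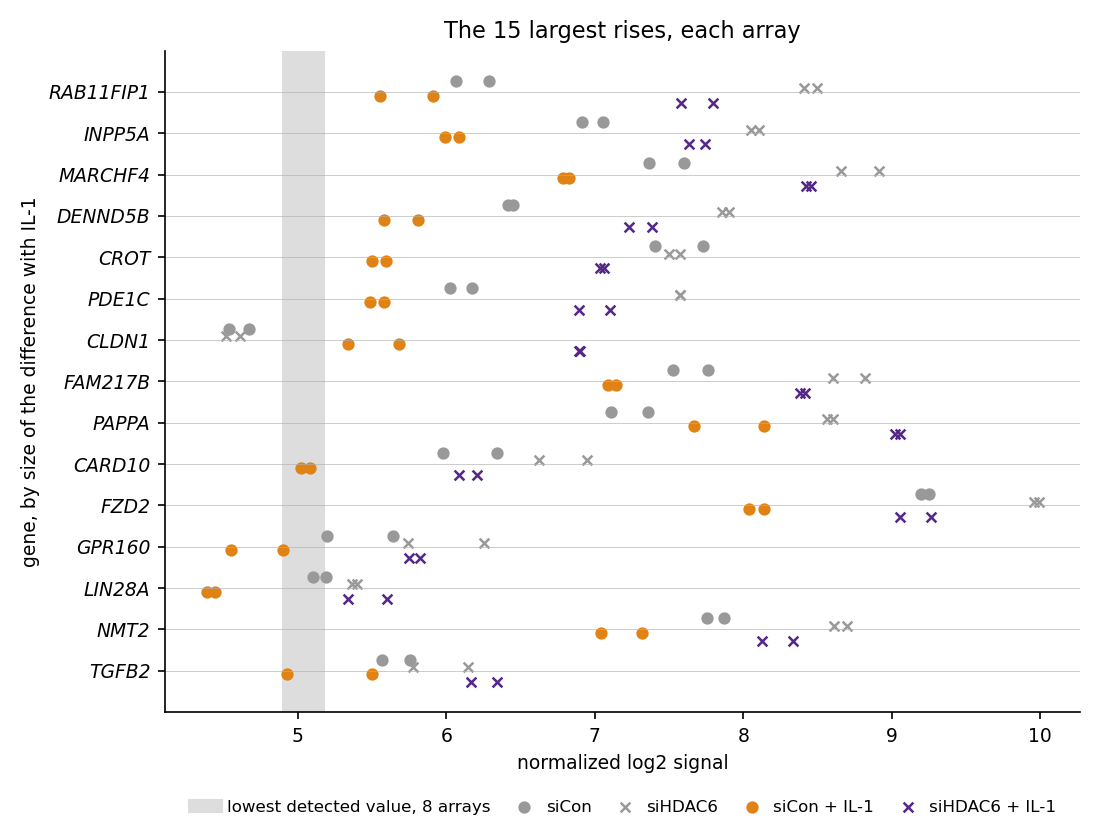
Points are the normalized log2 signals of single arrays for the 15 largest rises, 2 arrays per group. Grey symbols are unstimulated cells, coloured symbols IL-1-stimulated cells, circles siCon and crosses siHDAC6, and the band spans the lowest detected value of the 8 arrays (4.90 to 5.17). For every gene both siHDAC6 + IL-1 crosses lie to the right of both siCon + IL-1 circles, and for CROT the grey symbols of both siRNAs overlap.

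The 15 largest falls ranged from 3.11-fold to 5.87-fold by normalized signal, with only a lower bound for the targeted HDAC6 among them. All 15 were called under every alternative. They fell into a set that the siRNA also lowered in unstimulated cells and a set of IL-1-induced genes. Of the 15, 9 were called lower without IL-1 as well and 6 were not, 5 of the latter being above background on no unstimulated array, so that a fall there could not have been seen.

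In the first set CRYGS, a crystallin known from the lens, had 8.68 and 8.67 with siCon + IL-1 and 6.29 and 6.41 with siHDAC6 + IL-1. PPT1, the lysosomal thioesterase that strips palmitate from proteins, had 10.26 and 10.25 against 8.54 and 8.52. BEX2, a small X-linked signalling adaptor, had 8.51 and 8.46 against 6.55 and 6.61. Replicates of a group were within 0.12 of each other for these genes and the groups were far apart, with log2 differences of -2.33 (SE 0.10, adjusted p = 1.17e-04), -1.72 (SE 0.10, adjusted p = 1.99e-04) and -1.91 (SE 0.12, adjusted p = 2.25e-04). Without IL-1 the differences were -2.73, -1.85 and -1.83. MMD, a membrane protein named for monocyte to macrophage differentiation, fell by 1.99, FZD8, a Wnt receptor of the same family as FZD2, by 1.81, and TYMSOS, a transcript from the strand opposite TYMS, by 1.77. All 3 were called without IL-1 too, with differences of -1.57 for MMD and -1.68 for FZD8. SGSM1 had 7.07 and 7.23 against 4.88 and 4.97, above background on only 1 siHDAC6 + IL-1 array. It was called without IL-1 too (-1.51).

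In the second set were MMP13, IL6, IL1RN, MMP12 and CA2, with GBP6 (a guanylate-binding protein of the interferon response) detected only with siCon in unstimulated cells. MMP13, the collagenase of cartilage breakdown, had 9.30 and 9.25 against 6.81 and 6.63. IL6, an inflammatory cytokine, had 11.75 and 11.86 against 9.74 and 9.60. CA2, a carbonic anhydrase, had 6.64 and 6.59 against 4.78 and 4.92, below the lowest detected signals of these siHDAC6 + IL-1 arrays (4.95 and 4.96). Its value is the mean of 2 probes, with differences of -2.24 and -1.29, so that background limits the size of its fall. No values of the groups overlapped, and the interaction test was passed by MMP13, IL6, IL1RN, MMP12 and CA2. MMP10, a stromelysin, lay between the sets: it was above background on all unstimulated arrays, had a difference of -1.41 there, and fell by 1.77 with IL-1 (10.06 and 10.14 against 8.33 on both arrays).

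**Figure D3:**
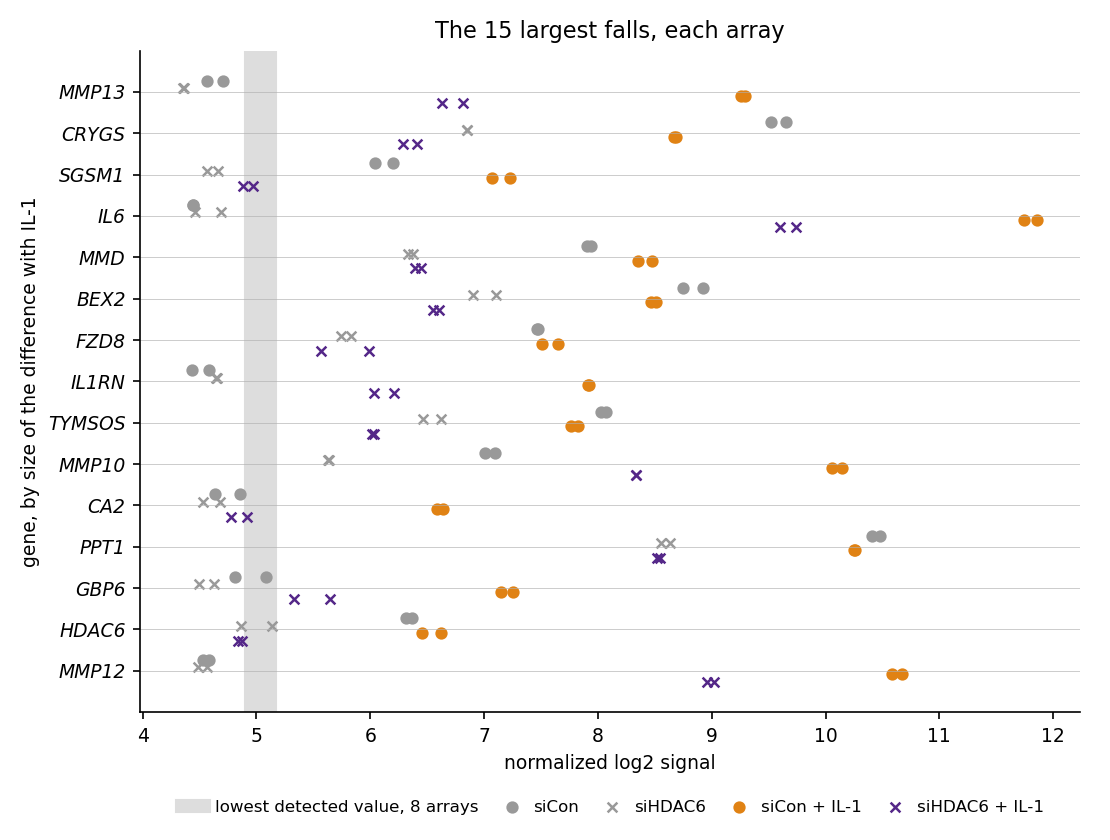
Points are the normalized log2 signals of single arrays for the 15 largest falls, with the symbols and band as in the plot of the rises. For CRYGS, MMD, BEX2, FZD8, TYMSOS and PPT1 the crosses of both colours lie to the left of the circles of both colours, while MMP13, IL6, IL1RN and MMP12 show all grey symbols below the band.

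RefSeq promoter windows (GRCh38.p14, 250 bases before to 50 after the annotated start, the first listed start of each gene) were read for 391 of the 494 falls and 332 of the 408 rises. Motifs were searched on both strands. The degenerate NF-κB consensus was present in 17.6% of the falls, 9.94% of the rises and 12.5% of the 9182 tested genes with a window. The AP-1 motif TGANTCA was present in 8.95%, 3.92% and 4.84%, and the interferon response element core in 8.95%, 1.2% and 2.95%. The cAMP response element TGACGTCA (2.56%, 2.71% and 3.23%) and the C/EBP motif TTGCNNAA (8.7%, 7.53% and 7.68%) were spread more evenly. Among the falls called without IL-1 as well, the NF-κB share was 10.9%, beside 21.3% for the falls called with IL-1 alone. These shares are descriptions of the letters in the windows and carry no test.

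The windows below show CXCL10 and IL6, falls undetected in unstimulated siCon cells, and MMP10, a fall detected there, with CRYGS, the largest fall shared with unstimulated cells, and CLDN1, a rise. Each runs from 5′ to 3′ on the strand of the gene, and capitals mark the motif matches, none of which overlap. Every window shown holds a match. Among the named genes without one were the falls SGSM1, MMD, BEX2, FZD8 and TYMSOS and the rises MARCHF4, DENND5B and CROT.
CXCL10 (chr4:76023448-76023747, minus strand): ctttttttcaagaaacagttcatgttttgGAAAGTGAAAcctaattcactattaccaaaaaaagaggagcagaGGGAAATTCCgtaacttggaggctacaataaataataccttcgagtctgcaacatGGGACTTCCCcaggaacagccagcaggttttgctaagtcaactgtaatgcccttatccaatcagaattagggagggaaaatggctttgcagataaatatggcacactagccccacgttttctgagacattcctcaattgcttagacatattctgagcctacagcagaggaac
IL6 (chr7:22726950-22727249, plus strand): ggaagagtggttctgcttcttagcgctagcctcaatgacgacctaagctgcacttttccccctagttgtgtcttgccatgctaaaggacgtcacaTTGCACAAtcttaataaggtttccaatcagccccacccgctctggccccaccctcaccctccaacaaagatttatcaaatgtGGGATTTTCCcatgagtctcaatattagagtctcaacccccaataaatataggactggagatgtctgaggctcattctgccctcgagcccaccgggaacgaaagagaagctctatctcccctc
MMP10 (chr11:102780579-102780878, minus strand): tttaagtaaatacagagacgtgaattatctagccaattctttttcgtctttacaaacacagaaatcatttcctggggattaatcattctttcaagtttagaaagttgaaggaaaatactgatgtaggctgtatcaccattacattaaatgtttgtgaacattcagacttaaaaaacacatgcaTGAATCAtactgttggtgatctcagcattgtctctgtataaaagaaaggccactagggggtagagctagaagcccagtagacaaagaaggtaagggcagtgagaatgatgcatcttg
CRYGS (chr3:186544331-186544630, minus strand): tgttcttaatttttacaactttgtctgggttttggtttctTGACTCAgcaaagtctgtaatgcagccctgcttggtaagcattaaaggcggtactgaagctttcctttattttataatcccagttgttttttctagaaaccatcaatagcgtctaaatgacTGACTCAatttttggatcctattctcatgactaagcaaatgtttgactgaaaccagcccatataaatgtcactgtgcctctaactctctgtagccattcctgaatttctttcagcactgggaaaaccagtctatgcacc
CLDN1 (chr3:190322397-190322696, minus strand): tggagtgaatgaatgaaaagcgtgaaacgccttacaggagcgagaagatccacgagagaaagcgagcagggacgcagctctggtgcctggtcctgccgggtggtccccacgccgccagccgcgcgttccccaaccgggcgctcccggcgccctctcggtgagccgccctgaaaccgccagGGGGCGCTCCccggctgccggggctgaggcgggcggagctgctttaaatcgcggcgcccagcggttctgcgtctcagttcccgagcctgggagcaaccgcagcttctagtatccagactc
The CXCL10 window held an interferon response element core from -221 to -212 and NF-κB matches from -177 to -168 and from -122 to -113, counted from the start as base 0. IL6 held a C/EBP match from -155 to -148 and an NF-κB match from -73 to -64. MMP10 held an AP-1 match from -67 to -61 and CRYGS held AP-1 matches from -210 to -204 and from -89 to -83, while CLDN1 held an NF-κB match from -70 to -61.

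The differences without IL-1 come from the other 4 arrays, but the calls in both contrasts share 1 estimate of the spread over all 8 arrays, and leaving out either siHDAC6 + IL-1 array moved the calls without IL-1 to 179 lower and 100 higher. Without IL-1 270 genes were lower (2.41%) and 183 higher (1.64%). Of the 494 falls with IL-1, 166 were lower there too, which is 33.6% of these falls and 61.5% of the 270. Of the 408 rises, 107 were higher there too, 26.2% of the rises and 58.5% of the 183. The sign of the difference without IL-1 was the same for 91.7% of the rises and 80.6% of the falls, beside 64.9% of all genes tested. The rises were mostly genes that unstimulated cells already expressed, with 95.8% above background on all 4 unstimulated arrays against 77.3% of the falls and 83.4% of all genes, and 62 falls but 5 rises were above background on none. A gene was called in opposite directions only once: FST, which encodes the activin antagonist follistatin, was higher by 0.96 without IL-1 and changed by -0.54 with it (8.79 and 8.95 against 8.36 and 8.30, named after its values were seen).

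**Figure D4:**
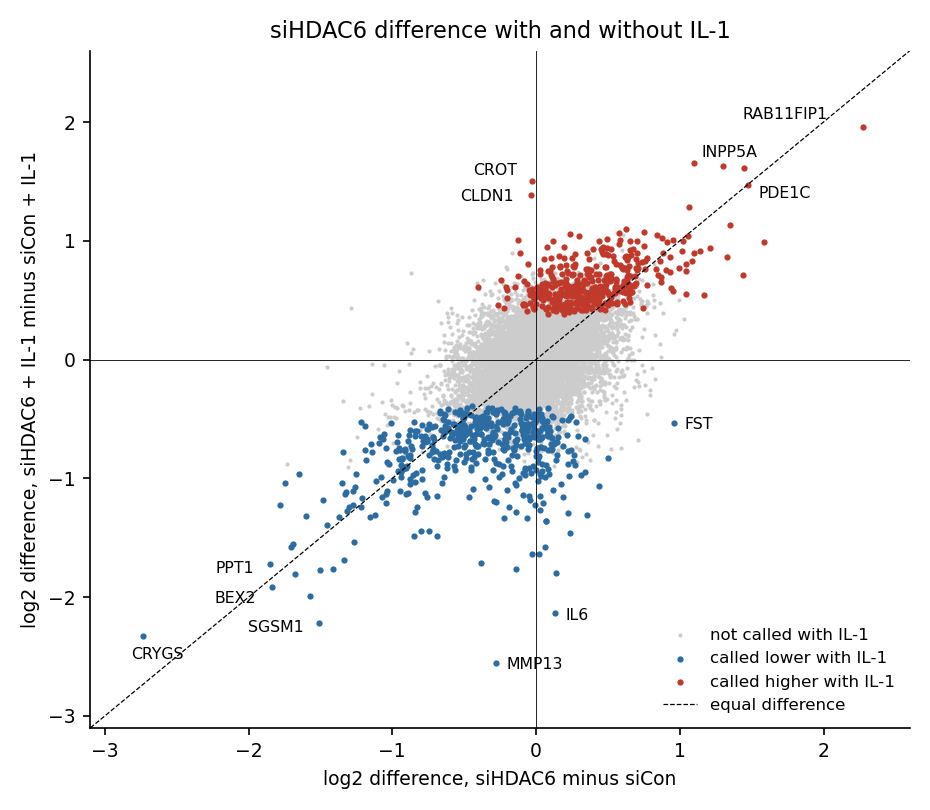
Each point is 1 gene, with the siHDAC6 minus siCon log2 difference without IL-1 on the horizontal axis and with IL-1 on the vertical axis (n = 2 arrays per group). CRYGS, BEX2, PPT1, PDE1C and RAB11FIP1 lie near the dashed line of equal difference, MMP13, IL6, CROT and CLDN1 lie near a horizontal difference of 0, and FST is called in opposite directions.

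The gene lists showed where the calls gathered. Of 36 lists, 12 had members called lower and 0 higher, 2 had members called higher and 0 lower, 18 had both, and 4 had none called. Shares of members are read against the 4.42% lower and 3.65% higher of all genes, and no test of the lists was made.

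The list with most members called higher was that of mitotic genes, 8 of 46, and 1 was lower. The list's median log2 difference was 0.27, beside 0.03 for all genes, and 39 of 46 members had a difference above 0. Without IL-1 the list's median was 0.26, beside 0.01 for all genes, and 4 members were called higher. TOP2A, the topoisomerase that untangles chromosomes before division, had 8.86 and 8.84 with siCon + IL-1 and 9.38 and 9.46 with siHDAC6 + IL-1, a difference of 0.57 (SE 0.11, adjusted p = 0.0212). BIRC5 (survivin, of the chromosomal passenger complex) rose by 0.65 and DLGAP5, a spindle protein, by 0.58. CDC25B, a phosphatase that starts mitosis, went the other way, from 11.11 and 11.43 to 10.47 and 10.39 (difference -0.84, adjusted p = 0.00974). Leaving out any array gave 0 to 5 mitotic genes called higher (0 without either siHDAC6 + IL-1 array) and median scaling 1, whereas the authors' log2 values gave 17. Of 39 DNA replication genes 1 was called lower, GINS1 (at least 1.22-fold), and 0 higher.

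Collagens and cartilage matrix genes had 7 of 39 members higher and 2 lower, with a median difference of 0.08. COL13A1, a transmembrane collagen, had 7.44 on both siCon + IL-1 arrays and 8.26 and 8.25 on the siHDAC6 + IL-1 arrays, a difference of 0.82 (SE 0.10, adjusted p = 0.00444) that held under every alternative. COL16A1, a fibril-associated collagen, rose by 0.77 and THBS1, the matricellular thrombospondin, by 0.75. All 3 were higher without IL-1 as well (0.71 for COL13A1, 0.71 for COL16A1 and 0.90 for THBS1). HAPLN3, a hyaluronan and proteoglycan link protein that was not detected in unstimulated cells, fell by 0.74. Matrix genes called higher were 1 without siHDAC6 + IL-1 replicate 2, 2 without siCon + IL-1 replicate 2 and 3 without siHDAC6 + IL-1 replicate 1.

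Of 24 YAP-responsive genes 4 were higher and 0 lower, with a median of 0.22. Beside TGFB2 these were NUAK2, a stress kinase (0.90), CCN1, a matricellular growth regulator (0.86), and CRIM1, a BMP-binding membrane protein (0.83). CCN1 had 9.62 and 9.86 against 10.67 and 10.53, and was raised by 1.33 without IL-1. The groups did not overlap. The count was 0 without siHDAC6 + IL-1 replicate 1 and 1 without siHDAC6 + IL-1 replicate 2 or siCon + IL-1 replicate 2, and the authors' log2 values gave 11.

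In TGF-β, BMP and activin signalling 6 of 30 genes were lower and 3 higher. BMP2, a bone morphogenetic ligand, went from 7.28 and 7.57 to 6.07 and 6.36, a difference of -1.21 (SE 0.19, adjusted p = 0.0102), and TGFB3 from 7.78 and 7.58 to 6.97 and 6.85, a difference of -0.77. TGFB2 thus rose while TGFB3 fell, and neither overlapped between groups, as was so for 52.4% of all genes. Both calls were lost in the fit of the 4 arrays compared, and that of TGFB3 under median scaling too. FSTL1, a secreted follistatin-like protein, fell by 0.78. The falls numbered 1 without either siHDAC6 + IL-1 array, without siCon + IL-1 replicate 2 or under median scaling, and 2 without siCon + IL-1 replicate 1. Of 21 growth factor ligands and regulators of insulin-like growth factors 2 were higher, PAPPA and STC2, and 2 lower. BTC (betacellulin, a ligand of the EGF receptor) fell by 1.05 and STC1 by 0.91. Under median scaling the calls of STC1 and STC2 were lost. The call of STC1 was also lost with the replicate block and that of STC2 in the fit of the 4 arrays compared. Those of STC1, STC2 and BTC were lost without some single arrays. The stanniocalcins STC1 and STC2 are inhibitors of PAPPA, and STC2 went from 9.81 and 9.71 to 10.37 and 10.38, a rise of 0.61.

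Falls outside the lists of inflammatory genes were spread over several other lists. Of 48 lysosomal genes 5 were lower and 1 higher, with a median of -0.04, which was -0.06 relative to all genes under quantile normalization and under median scaling alike. LGMN, the asparaginyl endopeptidase legumain, had 10.44 and 10.50 against 9.30 on both arrays, a difference of -1.17 (SE 0.11, adjusted p = 0.0018), and CTSL, the cathepsin L protease, fell by 0.82. CTSS (-0.57) and ARSB (-0.47), named after their values were seen, complete the falls with PPT1, and ATP6V1A, a subunit of the proton pump, rose by 0.83. Without IL-1 the differences were -1.21 for LGMN and -0.66 for CTSL. Leaving out any array gave 2 to 4 falls.

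FADS1, a desaturase of polyunsaturated fatty acids, had 8.56 and 8.46 with siCon + IL-1 and 7.19 on both siHDAC6 + IL-1 arrays, a difference of -1.32 that was called under every alternative and was -1.37 without IL-1. It was the only 1 of 26 cholesterol and fatty acid synthesis genes called lower, and MVD, of the mevalonate pathway, rose by 0.58. PLAT, the tissue plasminogen activator, went from 8.56 and 8.66 to 6.95 and 7.31, a difference of -1.48 (SE 0.16, adjusted p = 0.00327), and was the only 1 of 8 plasminogen activation genes called. MT1X, a metallothionein whose near-identical relatives can share its probe, fell by 0.91.

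Of 32 hypoxia targets and glycolysis genes 6 were lower and 0 higher, with a median of -0.22. HK2, a hexokinase, fell by 0.72, ADM (adrenomedullin) by 0.68, PFKFB3, a regulator of glycolysis, by 0.55 and HIF1A, the oxygen-sensing factor, by 0.45 (9.94 and 9.95 against 9.48 and 9.51). Of 26 endoplasmic reticulum stress genes 6 were lower and 1 higher, among them DDIT3, the stress factor CHOP (8.79 and 8.84 against 8.01 and 8.08, difference -0.77), and HSPA5, the chaperone BiP (-0.66). The call of HIF1A was lost in all 8 fits that left out an array. Under median scaling 0 genes of either list were called lower, whereas the authors' log2 values gave 13 hypoxia genes and 9 stress genes. Fewer of each list were called lower whichever array was left out. Of 25 NRF2 targets and peroxiredoxins 4 were lower and 0 higher, although the list's median was 0.11. HMOX1 (heme oxygenase) fell by 0.83, SOD2 by 0.65, TXNRD1 by 0.47 and AKR1C2, which has near-identical relatives, by 1.01. Leaving out any array gave 1 to 3 of these falls, median scaling 1, and the authors' log2 values 5 lower and 4 higher.

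Of 31 tubulins and microtubule-associated genes 3 were higher and 1 lower. TUBA4A, an α-tubulin, had 6.42 and 6.78 against 7.54 and 7.65, a difference of 1.00 (SE 0.14, adjusted p = 0.00741), TUBB rose by 0.42, TUBE1 by 0.95, and MAP1A, a microtubule-binding protein, fell by 0.48. The call of TUBA4A was lost in 1 of the 8 fits that left out an array (adjusted p = 0.0621), that of TUBE1 in 5, and those of TUBB and MAP1A in all 8. Of 28 heat shock genes DNAJB6 (-0.48) and HSPA1B (-0.44, with a near-identical copy) were lower and HSPB1 (0.54) higher, and leaving out any array gave 0 to 1 in each direction. None of 15 other histone deacetylases and sirtuins and none of 27 cilium genes was called (3 and 7 at an unadjusted p under 0.05, which 25.1% of all genes reached), and in the authors' log2 values 1 and 3 were called. Of 41 aggresome and autophagy genes 1 was higher, ATG4C by 0.56, and 1 lower, WIPI1 by 0.43. That is 2.44% in each direction, below the shares of all genes, and under median scaling 0 were called. The 46 respiratory chain genes and 27 proteasome genes held none called (3 and 1 at an unadjusted p under 0.05), with medians of 0.06 and -0.02, while the authors' log2 values gave 1 lower and 4 higher respiratory chain genes and 1 lower proteasome gene.

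**Figure D5:**
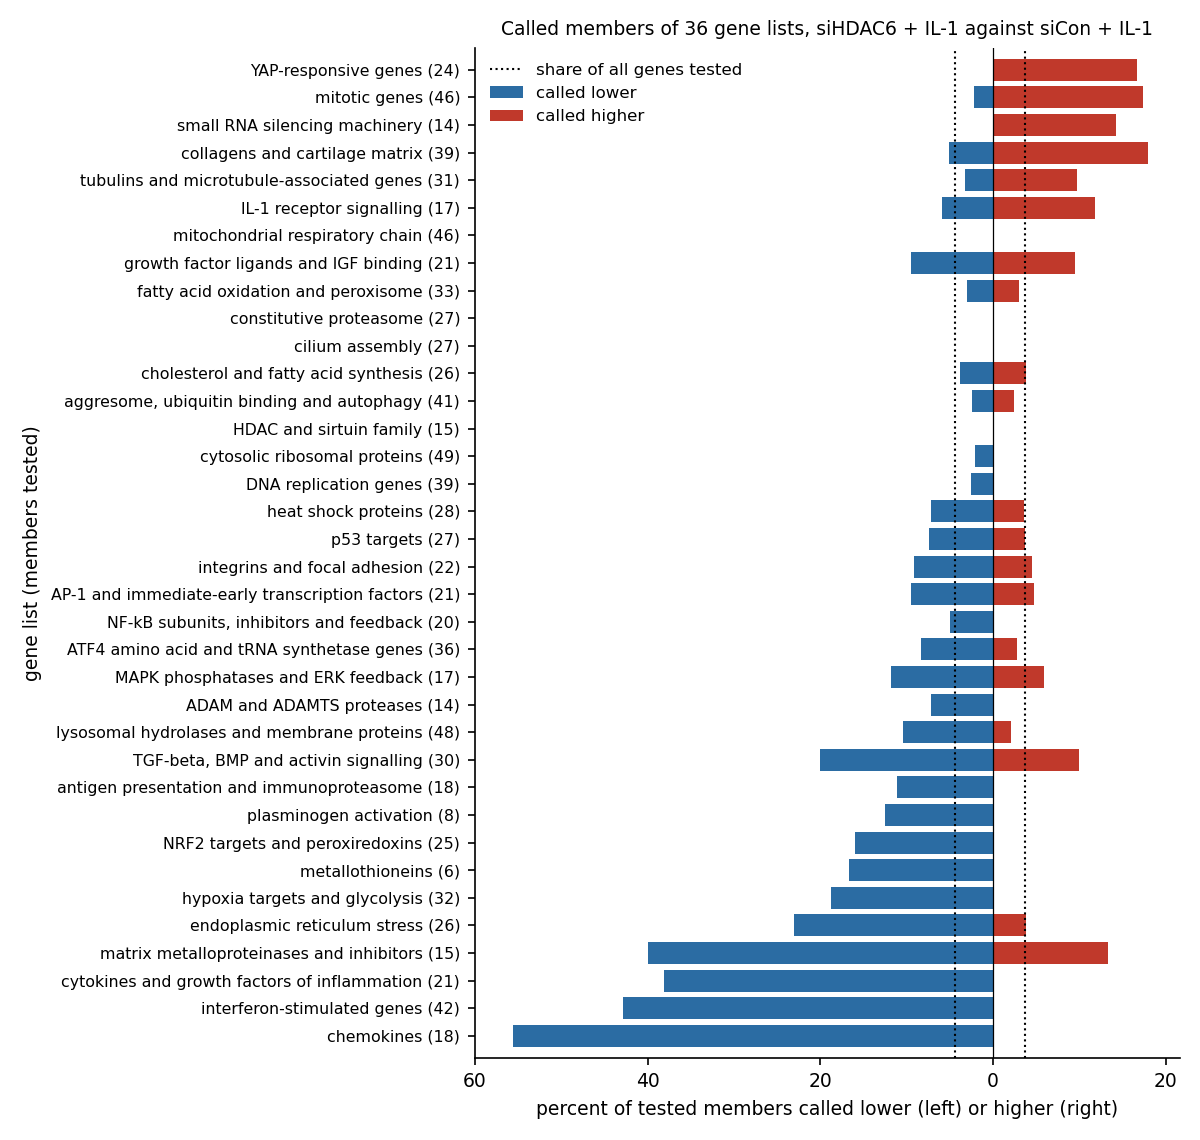
Bars give the percent of each list's tested members called lower (left, blue) and higher (right, red) in siHDAC6 + IL-1 against siCon + IL-1, with the number tested in parentheses. Dotted lines mark the share of all 11182 genes, 4.42% lower and 3.65% higher. The chemokine bar is the longest on the left, and collagens, mitotic and YAP-responsive genes have the longest bars on the right.

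Of the 36 lists, those of chemokines, interferon-stimulated genes, metalloproteinases and inflammatory cytokines (8 of 21 lower, 5 to 8 when an array was left out) held the highest shares of falls. Of 18 chemokines 10 were lower, and leaving out any array gave 8 to 10. CXCL10, which attracts T cells, had 13.68 and 13.62 against 12.28 and 12.10, and the groups did not overlap. Of 15 metalloproteinases and inhibitors 6 were lower (5 to 6 when an array was left out) and 2 higher, namely the inhibitors RECK (0.85) and TIMP3 (0.55), both named after their values were seen, and leaving out any array gave 0 to 2 such rises. TIMP3, an inhibitor bound to matrix, had 9.17 and 9.16 against 9.78 and 9.65 and was higher by 1.05 without IL-1. Of 42 interferon-stimulated genes 18 were lower and 0 higher, with a list median of -0.52. Fewer were called lower when any single IL-1 array was left out, and 6 under median scaling. The authors' log2 values gave 31 lower, and no background correction or an offset of 50 gave 26. In the IL-1 receptor pathway itself 1 of 17 genes was lower, the adaptor MYD88 (by 0.47), and 2 were higher, the receptor subunit IL1RAP (5.41 and 5.09 against 6.24 and 6.07, difference 0.91) and the ubiquitin ligase PELI1 (0.48), but leaving out any array gave 0 lower and 0 to 1 higher. The NF-κB list held 1 fall among 20 genes, NFKBIZ (-0.47), with 0 to 1 when an array was left out, 0 under median scaling and 6 in the authors' log2 values.

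Genes used as leukocyte markers fell as well. Of 10 such markers 3 passed the detection filter and all 3 were lower: CSF1R, the receptor of a macrophage growth factor (7.31 and 7.44 against 6.36 and 6.41, difference -0.99), LYZ, lysozyme (at background on both siHDAC6 + IL-1 arrays and at least 1.71-fold lower), and CD68, a lysosomal membrane protein (-0.72). Their summed signal was 1650 to 1780 with siCon + IL-1 and 985 to 1050 with siHDAC6 + IL-1, and the defining markers PTPRC, CD14, ITGAM and CD3E were above background on no array. Under median scaling 1 of the 3 tested leukocyte markers was called lower. Without IL-1 the difference of CSF1R was -1.08. Endothelial markers (2 of 7 tested) and epithelial markers (3 of 7 tested) had none called. Of the 7 chondrocyte markers tested 1 was called higher and 0 lower, with the same counts in the authors' log2 values and under median scaling. All samples are of the SW1353 line. Bulk RNA cannot show whether all of its cells or only some held less of the leukocyte marker transcripts.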

How the data were processed

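The authors deposited, for each of 48803 probes and 8 arrays, signal intensity without background subtraction beside a detection p-value. A second table deposited by the authors, used as an alternative, holds log2 values from lumi (version not given in the sources used here) after variance stabilisation and robust spline normalization.

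Signals were background corrected, quantile normalized and log2 transformed with neqc of limma 3.58.1 in R 4.3.3 (offset 16). Probes were named from GEO's platform annotation, which can be old and may differ from the array version in the methods: 27578 had 1 symbol, 13 several and 21212 none listed. Of 18045 probes detected (p under 0.05) on 2 or more of 8 arrays, 14483 had 1 symbol and were averaged to 11182 genes. A mean per group was fitted to all 8 arrays with lmFit and eBayes (4 residual and 3.79 prior degrees of freedom), and adjusted p-values are Benjamini-Hochberg values over all genes, called under 0.05. Folds are lower bounds for genes that a whole group measured only at background. The number of arrays limits the precision. The workflow was tested on simulated data.

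The 36 lists (1193 entries with the 4 marker lists) and the members were chosen with earlier results of these data known. Named genes are HDAC6, the 15 largest falls and rises (same sign in both replicate numbers, above background on both arrays of the higher group), up to 4 called members per list with the largest differences, and in each direction of the interaction the 3 genes of smallest adjusted p; any other gene is marked where it appears or is a cell type marker. Alternatives were the authors' log2 values, no background correction, an offset of 50, median scaling, other detection filters, eBayes with trend and robust, the brightest probe of a gene, the replicate block, fits restricted to the 4 arrays compared, and leaving out each array. Slides are not named by files or labels. Promoters were read with Python 3.11.15 and figures drawn with matplotlib 3.10.9.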

Additional observations from a re-analysis of the deposited data

Results flagged for a closer look

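The siHDAC6 difference with IL-1 departed from that without IL-1 in 13 of 11182 genes by limma's interaction test (adjusted p under 0.05), 12 with a value below 0 (0.107% of genes) and 1 above 0 (0.00894%). At an unadjusted p under 0.05 there were 569 and 547. Values are the log2 difference with IL-1 minus that without. The value above 0 was that of CROT, 1.53. Among secreted proteases and enzymes MMP13 had -2.28, MMP12 -1.61 and CA2, which is intracellular, -1.63. Among cytokines and their antagonists IL6 had -2.27, IL1B -1.64, IL1RN -1.93 and the activin antagonist FST -1.49. Of the chemokines CXCL10 had -1.69, while CCL3L1 (-1.43) and CCL3L3 (-1.18) are near-identical and may share signal. OASL, an interferon-stimulated gene, and the defensin DEFB4A both had -1.66. A gene at background in unstimulated cells could not show a fall there, whereas CROT and FST were above background on all unstimulated arrays. DEFB4A and FST were picked out after seeing their values. The count was 0 without siCon replicate 2, and 2 to 9 without any other array.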

How the results depend on the processing

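With 2 arrays a group the counts moved widely, and the causes were not tested. Against 494 lower and 408 higher with IL-1, 270 and 183 without and 13 for the interaction, the authors' log2 values gave 820, 872, 595, 529 and 164, an offset of 50 gave 706 higher with IL-1, 470 and 421 without and 84 for the interaction, no background correction gave 661, 456, 399 and 79, a detection p under 0.01 gave 701, 417, 372 and 41, and eBayes with trend and robust gave 800, 517, 461 and 74, in the same order. Median scaling gave 126 and 175 with IL-1 and 160 and 37 without. Fits of the 4 arrays compared gave 193 and 83 with IL-1 and 126 and 52 without, and with fewer arrays have fewer degrees of freedom. Of the 126 falls under median scaling 124 were among the 494.

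Leaving out an array gave 130 to 396 lower and 50 to 289 higher with IL-1, 76 to 272 and 33 to 187 without, 0 to 9 for the interaction and -1.77 to -1.60 for HDAC6, where a lone array was assumed to vary like the other groups. Of 112 named genes with a call 40 were called under every alternative that tested them. The rise of ZMAT3, a p53 target (0.44, adjusted p = 0.034), was -0.008 with the brightest probe (adjusted p = 0.983). Same-numbered arrays showed no shared deviation (correlations -0.04 to 0.05). With 2 arrays a group these values cannot show whether the numbers pair samples, which the labels do not state and which was not tested. The replicate block gave 387 and 288 with IL-1, 200 and 118 without and 6 for the interaction. Genes near background are limited by signal: 245 of the genes tested were above background on no IL-1 array.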
